A study of Mus musculus with 12 samples.

Results

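The genes described here are 10 genes of bile acid synthesis and its control, Cyp7a1, Cyp7b1, Cyp8b1, Cyp27a1, Baat, Slc27a5, Slc10a1, Nr0b2, Nr1h4 and Nr5a2, out of 22180 genes on the array with a probe of their own. They were taken by name and not by a cutoff on their values, with earlier results of these data known. Each had exactly 1 probe with a single gene symbol, and all 10 passed the filter on dim genes, which left 12710 genes to test. Gene arrays measured RNA of liver and of epididymal and inguinal white fat. The mice were males of 2 genotypes matched for age, Mgl2-DTR and wild-type C57BL/6N, with 2 arrays for each of the 6 groups. In Mgl2-DTR mice the gene Mgl2, which encodes the lectin CD301b, drives a receptor for diphtheria toxin, and the labels give C57BL/6N as their background strain too. Both genotypes were given the toxin into the abdomen at 3-day intervals, 500 ng each time, and were sampled on day 10, so all groups share the toxin. The toxin kills CD301b-positive mononuclear phagocytes, which are macrophages and dendritic cells, in Mgl2-DTR mice. In whole tissue, fewer cells of a type and less RNA per cell cannot be told apart.

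Bile acids are made from cholesterol in hepatocytes, the main cells of the liver. In the classical pathway Cyp7a1 catalyses the first and rate-limiting step and Cyp8b1 directs the product to cholic acid, while an alternative pathway runs through Cyp27a1 and Cyp7b1. Bile acids returning from the gut activate the nuclear receptor FXR (Nr1h4), which induces the repressor SHP (Nr0b2), and SHP dampens the drive of LRH-1 (Nr5a2) and HNF4A on Cyp7a1 and Cyp8b1.

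The start regions of 3 of the genes are shown because these genes differed most plainly in pattern: Cyp8b1 had the largest change of the 10 in liver, Nr0b2 moved the other way, and Cyp27a1 was the gene with a clear level in fat. Each line gives the 250 bases before the RefSeq start site on the gene's own strand, in build GRCm38.p6. Cyp8b1 lies at chr9:121916306-121916555 (minus strand), Nr0b2 at chr4:133553126-133553375 (plus strand) and Cyp27a1 at chr1:74713285-74713534 (plus strand). Capitals mark 2 motifs searched on both strands, CAAAGTC, the core of HNF4A sites, and CAAGG, the core of LRH-1 sites.
Cyp8b1: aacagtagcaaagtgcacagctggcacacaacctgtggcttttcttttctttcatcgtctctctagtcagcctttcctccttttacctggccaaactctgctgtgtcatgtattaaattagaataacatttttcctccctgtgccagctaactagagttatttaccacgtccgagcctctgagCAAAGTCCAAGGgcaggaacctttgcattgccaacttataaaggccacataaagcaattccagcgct
Nr0b2: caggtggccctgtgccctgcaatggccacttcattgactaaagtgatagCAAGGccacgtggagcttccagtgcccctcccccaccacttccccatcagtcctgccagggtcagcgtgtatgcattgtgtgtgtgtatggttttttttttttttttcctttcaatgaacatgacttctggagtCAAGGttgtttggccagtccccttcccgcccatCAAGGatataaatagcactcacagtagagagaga
Cyp27a1: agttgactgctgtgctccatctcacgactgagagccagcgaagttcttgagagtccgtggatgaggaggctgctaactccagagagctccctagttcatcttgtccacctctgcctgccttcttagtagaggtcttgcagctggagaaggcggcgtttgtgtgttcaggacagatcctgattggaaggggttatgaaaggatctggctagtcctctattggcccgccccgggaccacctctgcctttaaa

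Cyp8b1 held CAAAGTC from 67 to 61 bases before its start site, directly followed by CAAGG from 60 to 56 bases before it, and the motifs did not overlap. Nr0b2 held CAAGG 3 times, beginning 201, 67 and 34 bases before its start, and no CAAAGTC. Cyp27a1 held neither. Of 32851 RefSeq promoter windows of the same length, 3.84% held CAAAGTC and 46% held CAAGG, so the second motif is common. Another motif, AGGTCA, the half-site bound by many nuclear receptors, was in 14% of windows and in none of these 3. Windows were at hand for 6 of the 10 genes, with 8 windows in all, and Slc10a1 was the other gene of the 6 with CAAAGTC in a window. A match is a description of the letters and not of binding.

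The arrays fitted their labelled tissues. All 15 hepatocyte markers lay above the filter level of 5.71 (log2, the median of all single-symbol probe values) in each liver array. Their mean level was 11.79 to 11.84 there against 4.63 to 5.91 in the 8 fat arrays. The highest fat mean, 5.91, was in epididymal wild-type replicate 2, where 7 of the 15 were above the filter level. Inguinal wild-type replicate 2 followed at 5.60, with 6 above it. The 9 adipocyte markers averaged 10.85 to 11.63 in fat and 5.72 to 5.91 in liver. Mgl2 was at 7.46 and 7.22 in wild-type and 4.25 and 4.19 in Mgl2-DTR epididymal fat, and at 7.07 and 7.36 against 4.12 and 4.72 in inguinal fat. In liver Mgl2 was under the filter level in all 4 arrays (4.36 and 4.12 in wild-type, 4.59 and 4.03 in Mgl2-DTR), so it does not check the depletion there. Some fat arrays carried other tissue. The 9 skeletal muscle markers averaged 10.55 in inguinal wild-type replicate 2 and 10.26 in replicate 1 of the Mgl2-DTR genotype against 5.24 to 6.74 in the other 10 arrays. The 6 markers of the epididymal duct averaged 11.46 in epididymal Mgl2-DTR replicate 2 against 5.35 to 5.78 elsewhere. Among them Odf1 was also high outside that array, at 12.11 and 12.05 in wild-type liver, which raised the mean elsewhere. Adam7 was at 3.82 and 12.53 in epididymal Mgl2-DTR replicates 1 and 2. The labels name a mouse for each sample without saying which samples share a mouse, so the p-values reflect the spread among samples that may share animals, and 2 arrays a group limit the precision of each value.

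The first comparison asks how the bile acid genes of the liver differed between Mgl2-DTR and wild-type mice. Cyp7a1 and Cyp8b1, which together steer the classical pathway, had lower levels in Mgl2-DTR liver, by 0.88 and 1.03 on the log2 scale, and Nr0b2, the repressor SHP, had a higher level, by 0.37. None of the 10 genes passed the test over all genes, with limma adjusted p from 0.361 to 0.99993. Of all genes tested, 0.0708% passed in liver. At an unadjusted limma p under 0.05 there were 3 of the 10 genes, against 5.53% of all genes. The arrays of both genotypes did not overlap for 4 of the 10, 3 lower and 1 higher, a share near the 34.4% found over all genes (15.2% lower and 19.2% higher). The median change of the 10 genes was -0.06, against 0.01 over all genes tested.

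Among the enzymes of the classical pathway, Cyp7a1 was at 10.87 and 10.31 in the wild-type livers and at 9.88 and 9.53 in the Mgl2-DTR livers. Both Mgl2-DTR livers thus lay below both wild-type livers, by a gap smaller than the distance between the wild-type arrays. The means were 10.59 ± 0.40 and 9.71 ± 0.25 (SD, n = 2), a change of -0.88 (SE 0.21; limma unadjusted p = 0.00194; adjusted p = 0.381), which is 1.85-fold lower with a 95% interval of the ratio from 0.392 to 0.749. Cyp8b1 was at 11.58 and 11.31 in wild-type liver and at 10.59 and 10.24 in Mgl2-DTR liver. Its groups lay apart by more than the distance between the arrays of either group. The change of Cyp8b1 was -1.03 (SE 0.23; limma unadjusted p = 0.00155; adjusted p = 0.361), which is 2.04-fold lower with a 95% interval of the ratio from 0.340 to 0.705. Of all genes tested, 0.826% had a larger absolute change in liver than Cyp7a1 and 0.543% a larger one than Cyp8b1. Leaving out each of the 4 liver arrays in turn gave changes of -1.17 to -0.60 for Cyp7a1 and of -1.21 to -0.85 for Cyp8b1.

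In the alternative pathway, the oxysterol hydroxylase Cyp7b1 was at 10.44 and 10.07 in wild-type liver and at 9.94 and 9.85 in Mgl2-DTR liver. The groups did not overlap, but the lower wild-type array stood close to the Mgl2-DTR arrays. The change was -0.36 (SE 0.18; limma adjusted p = 0.975), and it was -0.17 without wild-type replicate 1 and -0.54 without wild-type replicate 2. Cyp27a1, the mitochondrial sterol hydroxylase that opens the alternative pathway, was at 11.43 and 11.59 in wild-type and at 11.26 and 11.45 in Mgl2-DTR liver, with overlapping arrays. Its change was -0.16, with a 95% interval of -0.51 to 0.20.

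The genes of conjugation and uptake lay close together in both genotypes. Baat, which joins bile acids to taurine, was at 10.22 and 10.27 in wild-type and at 10.16 and 10.26 in Mgl2-DTR liver. Slc27a5, the ligase that activates bile acids before conjugation, was at 11.48 and 11.19 against 11.29 and 11.41. Slc10a1, the sodium-dependent carrier NTCP that takes bile acids up from blood, was at 11.81 and 11.99 against 11.94 and 11.68. The arrays of both genotypes overlapped for all 3 genes. The 95% intervals of their changes were -0.49 to 0.42 for Baat, -0.64 to 0.66 for Slc27a5 and -0.43 to 0.25 for Slc10a1, so differences of the size seen for Cyp8b1 lay outside each of them.

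Of the 3 nuclear receptor genes, Nr0b2 was the one whose groups lay apart in liver. It was at 8.40 and 8.25 in wild-type and at 8.72 and 8.67 in Mgl2-DTR liver. Both Mgl2-DTR arrays were above both wild-type arrays, and the change was 0.37 (SE 0.15; limma unadjusted p = 0.0331; adjusted p = 0.847), which is 1.29-fold higher. Nr5a2 was at 9.66 and 9.68 in wild-type and at 9.67 and 9.69 in Mgl2-DTR liver, with all 4 arrays close together and a 95% interval of the change from -0.34 to 0.36. Nr1h4 was at 9.78 and 8.84 in wild-type and at 9.23 and 9.60 in Mgl2-DTR liver, so the wild-type arrays enclosed the others. Its change was 0.10, and it was 0.57 without wild-type replicate 1 and -0.36 without wild-type replicate 2. The level of Nr1h4 in liver was therefore not fixed closely enough by these arrays to give a direction.

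**Figure D1:**
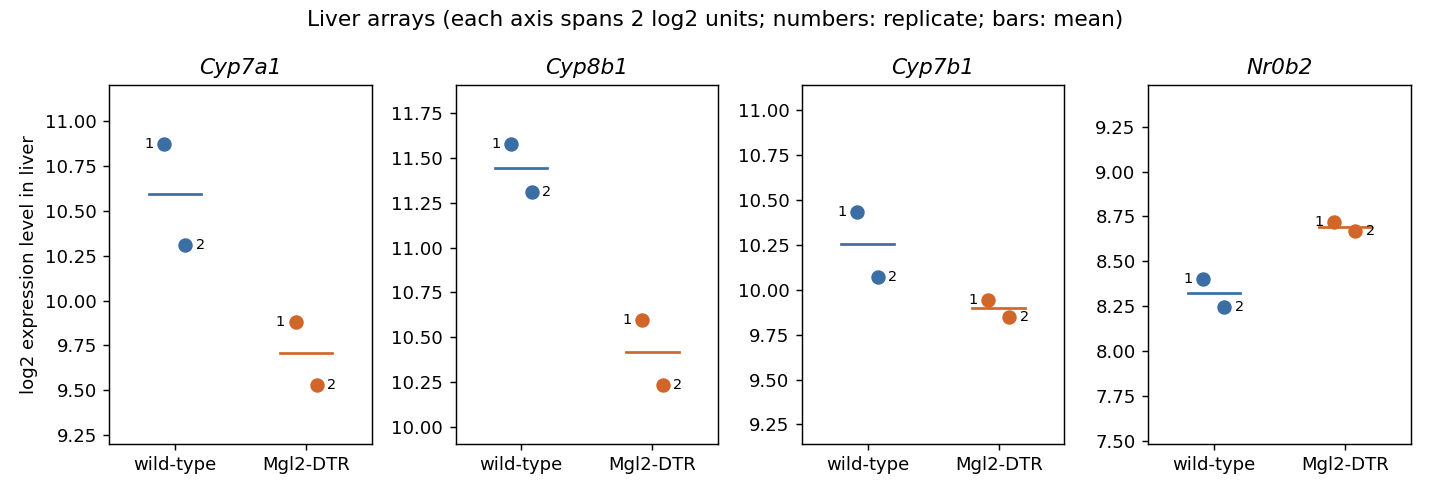
Levels (log2) of Cyp7a1, Cyp8b1, Cyp7b1 and Nr0b2 in the 4 liver arrays, by genotype, with points for arrays, numbers for the replicate and bars for the mean of 2. The arrays of the genotypes do not overlap in any of the 4 panels, with Cyp7a1, Cyp8b1 and Cyp7b1 lower and Nr0b2 higher in Mgl2-DTR liver, and none of these changes passed the test over all genes.

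Other genes of the pathway were taken from lists named for it, and no list had a gene that passed in liver by limma. Of 14 tested synthesis enzymes other than the 10 genes, 4 were higher and 10 lower, with a median of -0.14 and changes from -0.36 to 0.30. The smallest p-values were those of the peroxisomal enzymes of side-chain shortening, Scp2 at -0.36 (limma adjusted p = 0.981) and Acox2 at -0.29 (adjusted p = 0.995). No listed enzyme therefore had a change as large as that of Cyp7a1 or Cyp8b1. Of 14 transporters, 6 were higher and 8 lower, with a median of -0.03. The organic anion carriers Slco1a4 and Slco1a1, which take up bile acids and other anions, stood at opposite ends. Slco1a4 was at 7.83 and 7.61 in wild-type and at 8.83 and 9.72 in Mgl2-DTR liver, a change of 1.56 (SE 0.26; limma adjusted p = 0.113). Slco1a1 was at 9.96 and 10.30 against 9.30 and 8.44, a change of -1.26 (SE 0.28; limma adjusted p = 0.361). Both genes had groups that lay apart, with the more extreme level in Mgl2-DTR replicate 2.

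Of 18 other regulators, 8 were higher and 10 lower in Mgl2-DTR liver, with a median of -0.08. The forkhead factor Foxa2 was at 8.61 and 9.21 in wild-type and at 8.21 and 8.05 in Mgl2-DTR liver, a change of -0.77 (limma adjusted p = 0.521). Cebpa, another hepatocyte transcription factor, was at 9.79 and 9.82 against 9.33 and 8.99, a change of -0.64 (limma adjusted p = 0.758). Of 13 genes of cholesterol supply, 11 were higher and 2 lower, with a median of 0.12. The smallest p-values there were those of Mvd, an enzyme of the mevalonate pathway, at 0.64 (limma adjusted p = 0.882) and of Srebf2, which drives sterol synthesis, at 0.23 (adjusted p = 0.99993). Of 9 detoxification enzymes, 3 were higher and 6 lower, with a median of -0.04, led by Cyp3a25 at 0.78 (limma adjusted p = 0.761) and Cyp2a5 at -0.85 (adjusted p = 0.885). Cyp2a5 was at 7.79 and 6.57 in wild-type and at 6.08 and 6.57 in Mgl2-DTR liver, with overlapping arrays. These counts describe the lists beside a median of 0.01 over all genes and were given no test of their own.

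Cell type and state markers were read in the same liver arrays. The 15 hepatocyte markers had a median change of -0.00317, with 6 higher and 9 lower. The 10 pericentral markers, named for the zone of the lobule where Cyp7a1 is mainly expressed, averaged 10.08 and 9.95 in wild-type and 9.99 and 9.99 in Mgl2-DTR liver, and the 8 periportal markers 11.14 and 11.22 against 11.28 and 11.19. The 15 clock genes, which vary with the hour at which tissue is taken, averaged 7.65 and 8.02 against 7.67 and 7.86. The groups overlapped for each of these list means. The clock mean cannot compare the hour, because clock genes that move in opposite directions cancel in it. Nr1d1 was at 8.11 and 9.26 in wild-type and at 8.05 and 9.63 in Mgl2-DTR liver. Npas2 was at 8.40 and 8.61 against 8.44 and 7.24. Hlf was at 7.23 and 7.24 against 7.48 and 7.74. The arrays of both genotypes lay apart for Hlf, Nfil3 and Per1, higher in Mgl2-DTR liver, and for Arntl and Bhlhe40, lower there. They overlapped for the other clock genes, and 34.4% of all genes lay apart in liver. Other markers stood apart in the arrays where Cyp7a1 and Cyp8b1 were low. The 10 macrophage markers were all higher in Mgl2-DTR liver, averaging 9.04 and 8.99 against 8.52 and 8.39, and of 8 Kupffer cell markers 7 were higher, averaging 9.61 and 9.52 against 9.08 and 8.92, with none of either list called. All 13 acute phase genes were higher too, with 0 called. They averaged 10.69 and 10.64 in wild-type liver, 10.82 in the first and 11.78 in the second Mgl2-DTR replicate. The 12 genes of fasting and feeding averaged 10.18 and 9.77 against 10.31 and 10.04, with overlapping arrays. That list joins genes of both states, so its mean cannot show whether feeding was alike. The part of these markers in the levels of the bile acid genes was not tested. Without Mgl2-DTR replicate 2, the array with the highest acute phase genes, the changes were -0.71 for Cyp7a1 and -0.85 for Cyp8b1. The remaining Mgl2-DTR array, at 10.82, still had a higher acute phase mean than both wild-type arrays. These changes therefore do not bear on the part of the markers.

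**Figure D2:**
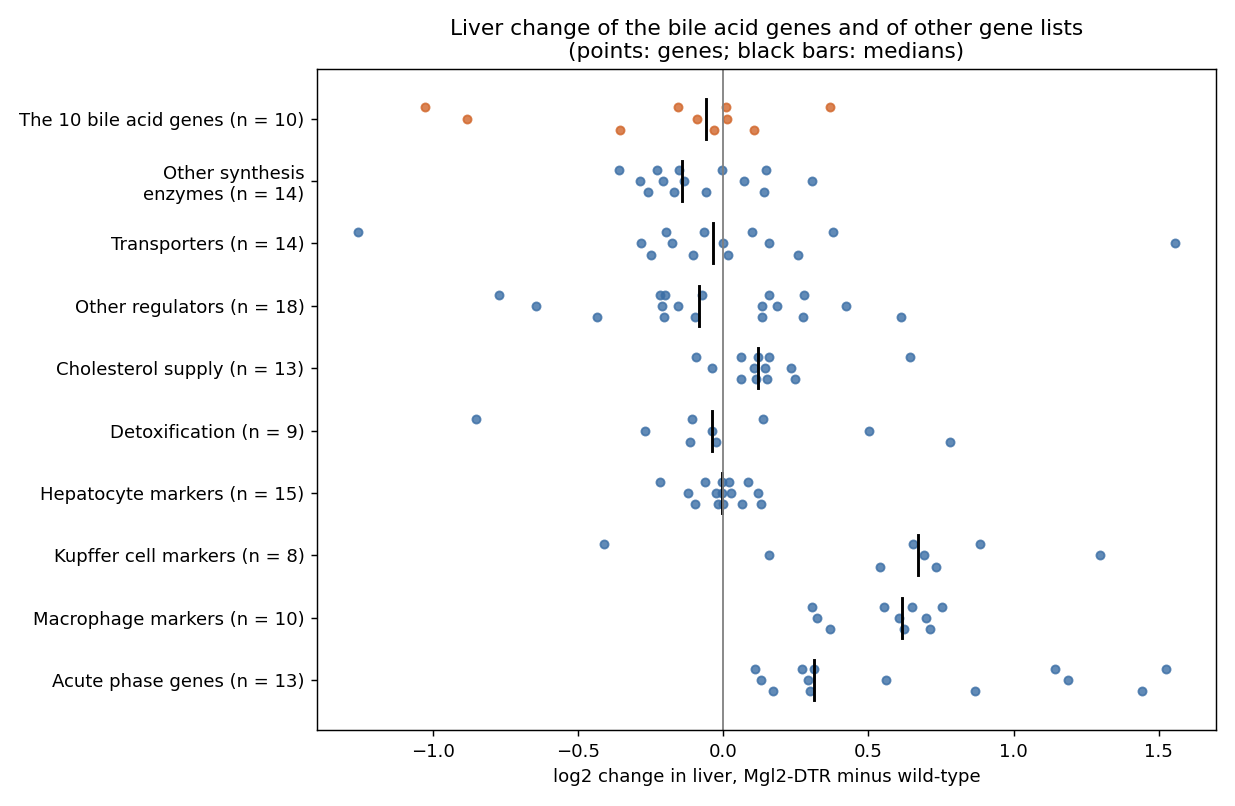
Change in liver (log2, Mgl2-DTR minus wild-type) of the 10 bile acid genes and of the genes of 9 other lists, with a point for each tested gene and a black bar at the median of each list. Cyp8b1 at -1.03 and Cyp7a1 at -0.88 lie outside the range of the other synthesis enzymes (-0.36 to 0.30), while the 10 macrophage markers all lie above 0.

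The same 10 genes were then compared between liver and fat. All 10 were higher in liver in both genotypes and were called by limma at an adjusted p under 0.05. Cyp7a1, Baat, Slc27a5, Slc10a1, Nr0b2, Nr1h4 and Nr5a2 passed the filter on dim genes through liver alone. The filter thus favoured a higher liver level of these genes, and their calls are no independent result. Of all genes tested, 23.2% were called higher and 34% lower in wild-type liver than in wild-type fat, and 19.9% higher and 33.7% lower in Mgl2-DTR mice. For each gene the lowest of the 4 liver arrays lay above the highest of the 8 fat arrays. Fat levels of Cyp7a1 (2.97 to 3.64), Baat (3.49 to 4.32), Slc27a5 (4.13 to 5.01), Slc10a1 (4.17 to 4.87), Nr0b2 (4.85 to 5.62) and Nr1h4 (4.44 to 5.64) were under the filter level in all 8 fat arrays. Cyp7b1 lay above it in 4 fat arrays, Cyp8b1 in 3 and Nr5a2 in 2. For these 9 genes the fat level may be background, so the difference from liver is limited by that floor and is no exact size.

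Cyp27a1, whose product acts on sterols in mitochondria of many tissues, was above the filter level in all 8 fat arrays. It was at 8.54 and 8.75 in wild-type and at 8.40 and 8.19 in Mgl2-DTR epididymal fat. In inguinal fat it was at 8.25 and 7.96 in wild-type and at 7.61 and 7.69 in Mgl2-DTR mice. Its level in liver was 3.14 (SE 0.14) above fat in wild-type mice, or 8.79-fold, and 3.38 (SE 0.14) above fat in Mgl2-DTR mice, or 10.4-fold. The order of its 6 groups ran from wild-type liver through Mgl2-DTR liver and wild-type and Mgl2-DTR epididymal fat to wild-type and Mgl2-DTR inguinal fat. In that order the arrays of the livers overlapped, and so did those of Mgl2-DTR epididymal and wild-type inguinal fat, while the other neighbours lay apart.

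Between the depots, no gene of the 10 passed in either genotype by limma. In wild-type mice Cyp27a1 was lower in inguinal than in epididymal fat by 0.54 (SE 0.16; limma adjusted p = 0.154), where 1.49% of all genes passed, and it was the 1 gene of the 10 at an unadjusted p under 0.05, against 15.7% of all genes. In Mgl2-DTR mice the difference was -0.64 (SE 0.16; limma adjusted p = 0.0853), where 1.96% of all genes passed and 5 of the 10 genes had an unadjusted p under 0.05, against 17.6% of all genes. The other 4 of these 5, Baat, Slc10a1, Nr0b2 and Nr5a2, were higher in inguinal fat by 0.43 to 0.58. Baat, Slc10a1 and Nr0b2 were under the filter level in both depots, and Nr5a2 was under it in epididymal fat. Leaving out each array in turn gave 0.28 to 0.68 for Nr5a2. The lowest value was that without epididymal replicate 2, the array with epididymal duct markers. The remaining differences in Mgl2-DTR mice were 0.44 for Cyp7a1, 0.35 for Cyp8b1 and Slc27a5, 0.12 for Cyp7b1 and -0.66 for Nr1h4. In wild-type mice those of the other 9 genes lay between -0.22 for Nr1h4 and 0.29 for Nr0b2, with Cyp8b1 at 0.24, Cyp7a1 at 0.23, Nr5a2 at 0.10, Slc10a1 at -0.01, Slc27a5 at -0.05, Cyp7b1 at -0.08 and Baat at -0.11.

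**Figure D3:**
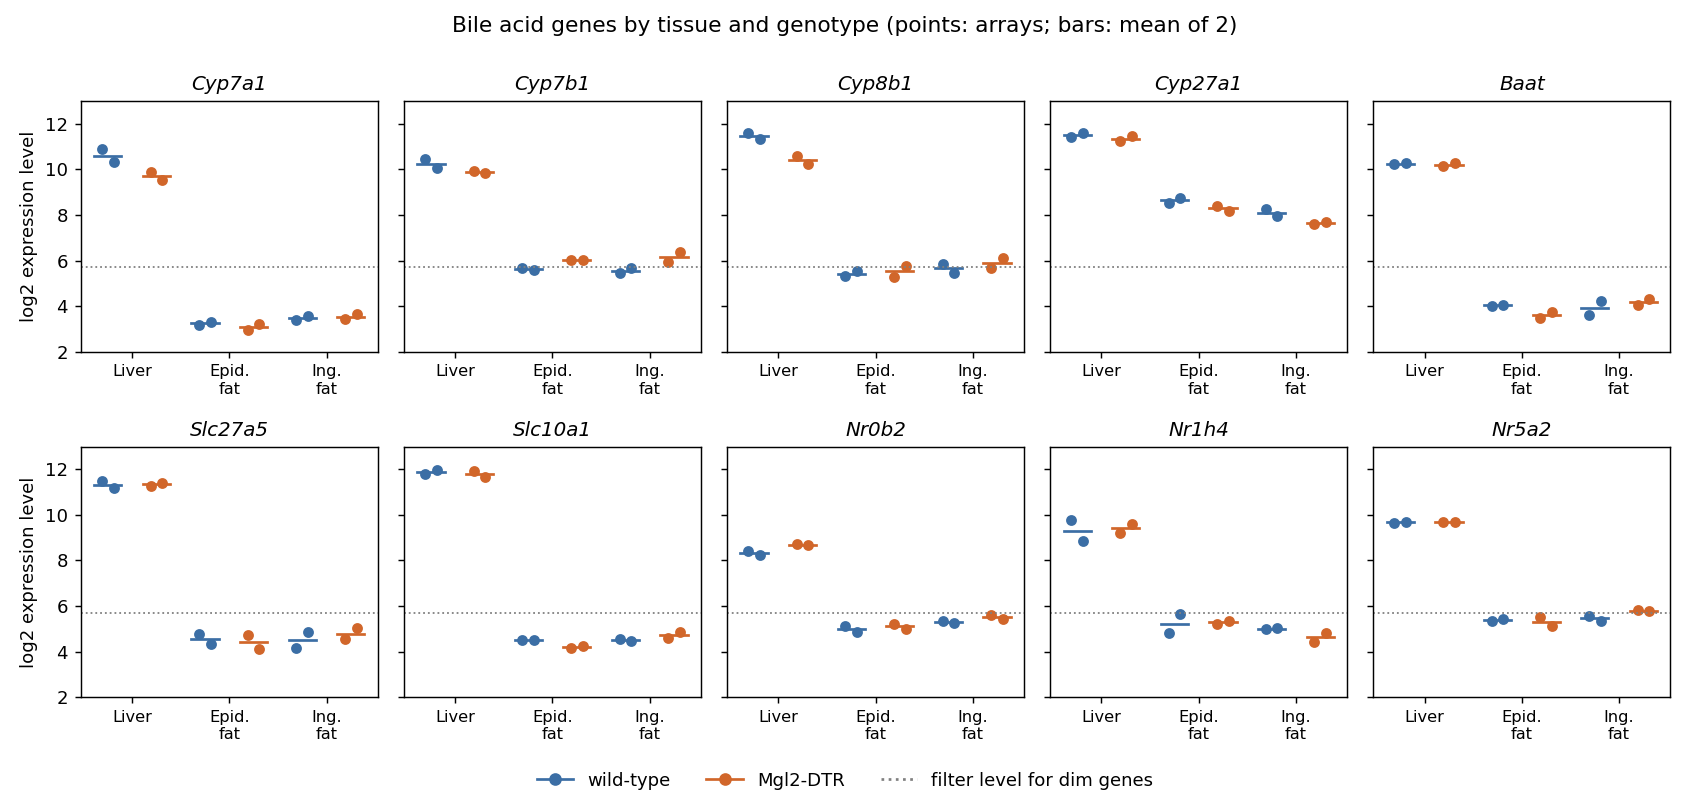
Level (log2) of each of the 10 genes in liver, epididymal fat and inguinal fat, wild-type in blue and Mgl2-DTR in orange, with a point for each array and a bar for the mean of 2. The dotted line is the filter level of 5.71, and only Cyp27a1 lies above it in all 8 fat arrays.

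Among the pathway lists, 13 of 14 other synthesis enzymes were called higher in wild-type liver than in wild-type fat by limma, among them Cyp2c70, an enzyme of muricholic acid formation in mice, and the acyl-CoA ligase Slc27a2. Of 14 transporters, 13 were higher, among them the uptake carrier Slco1b2 and the bile salt export pump Abcb11, and 1 was lower, the efflux pump Abcc4 at -0.85. Of 18 other regulators, 12 were higher, among them the receptor CAR (Nr1i3) and HNF4A (Hnf4a), and 3 were lower, the FGF co-receptor Klb at -0.85, the deacetylase Sirt1 at -0.48 and the vitamin D receptor Vdr. Cyp2c70, Slc27a2, Slco1b2, Abcb11 and Nr1i3 were under the filter level in all 4 wild-type fat arrays, Hnf4a in 3 of them and Vdr in the wild-type livers, so no size is given for these genes. In Mgl2-DTR mice 12 of the 14 enzymes, 13 of the 14 transporters and 12 of the 18 regulators were called higher, and 0, 1 and 2 of them lower. Listed genes that passed the filter through liver alone were favoured to stand higher there, so these counts are a description.

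In fat, the genotypes were compared in the same way. None of the 10 genes passed in epididymal or in inguinal fat (limma, adjusted p from 0.710 to 0.986 and from 0.575 to 0.963). Of all genes, 0.0315% passed in epididymal and 0.197% in inguinal fat. At an unadjusted p under 0.05 there was 1 of the 10 genes in epididymal fat, against 6.98% of all genes, and there were 2 in inguinal fat, against 6.93%. The arrays lay apart for 4 of the 10 genes in epididymal fat, 1 higher and 3 lower, against 29.5% of all genes (14.8% higher and 14.7% lower). In inguinal fat they lay apart for 6, 4 higher and 2 lower, against 46.9% (36.5% higher and 10.4% lower). In inguinal fat the median change over all genes was itself 0.10, and 0.00445 after cyclic loess within each tissue.

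Cyp7b1 had the smallest p of the 10 in both depots. It was at 5.67 and 5.58 in wild-type and at 6.04 and 6.03 in Mgl2-DTR epididymal fat, a change of 0.40 (SE 0.18; limma unadjusted p = 0.0486; adjusted p = 0.710). In inguinal fat it was at 5.44 and 5.66 in wild-type and at 5.94 and 6.36 in Mgl2-DTR mice, a change of 0.60 (SE 0.18; limma unadjusted p = 0.00764; adjusted p = 0.575). Both Mgl2-DTR arrays were above both wild-type arrays in each depot, with the wild-type levels just under the filter level. The inguinal change was 0.92 with both muscle-bearing arrays left out, which left no replicates in either inguinal group. It was 0.39 without Mgl2-DTR replicate 2 alone. Cyp27a1 went the other way, at -0.35 (SE 0.16; limma adjusted p = 0.710) in epididymal and at -0.45 (SE 0.16; limma unadjusted p = 0.0181; adjusted p = 0.649) in inguinal fat, with both Mgl2-DTR arrays below both wild-type arrays in each depot. In the same arrays the 10 macrophage markers averaged 10.92 and 10.14 in wild-type and 9.55 and 9.29 in Mgl2-DTR epididymal fat, and 9.93 and 10.06 against 8.20 and 8.83 in inguinal fat. Macrophages also express Cyp27a1, and the part of these markers in its level was not tested. Without the muscle-bearing arrays, and so again without replicates, the inguinal change of Cyp27a1 was -0.56. Of the other 8 genes, 6 were under the filter level in every fat array and none passed. Epididymal and inguinal changes were -0.15 and 0.06 for Cyp7a1, -0.42 and 0.27 for Baat, -0.14 and 0.26 for Slc27a5, and -0.30 and 0.22 for Slc10a1. Among the receptors they were -0.05 and 0.33 for Nr5a2, 0.06 and -0.38 for Nr1h4, and 0.11 and 0.24 for Nr0b2, and for Cyp8b1 they were 0.10 and 0.21.

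**Figure D4:**
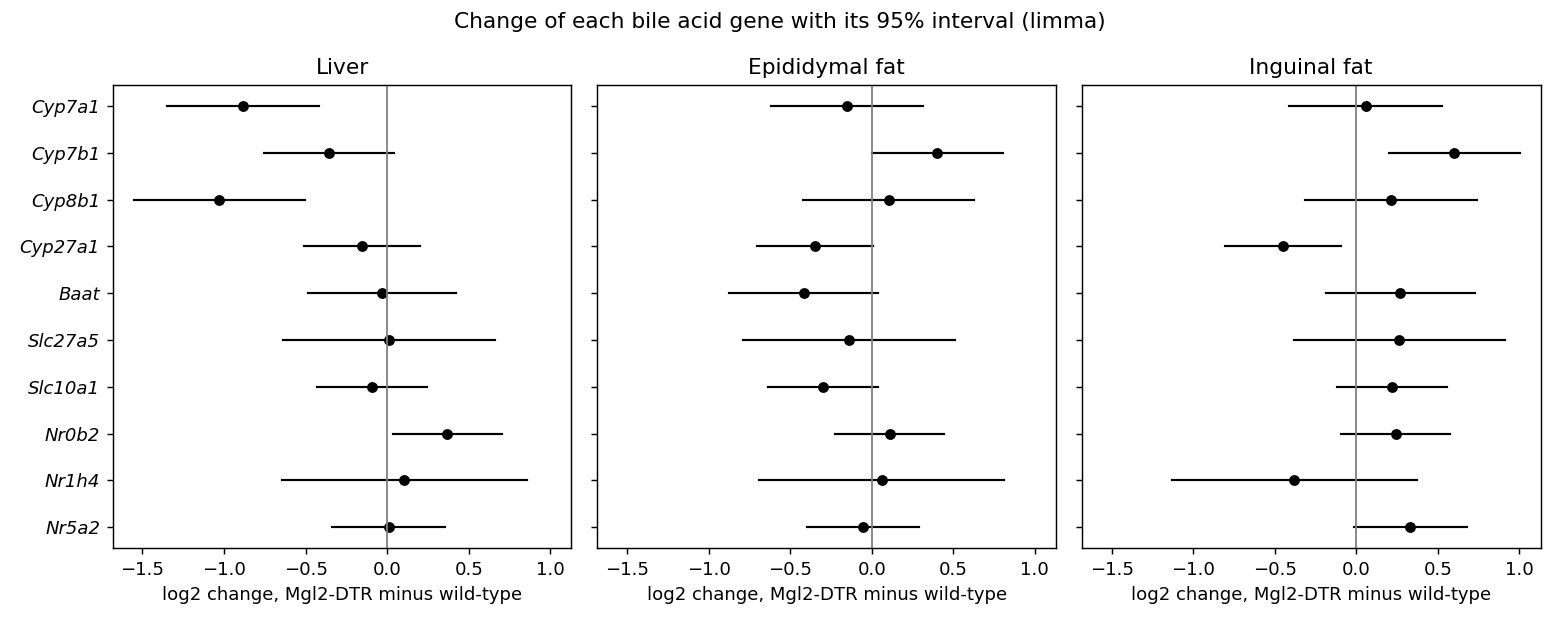
Change (log2, Mgl2-DTR minus wild-type) of each of the 10 genes in liver, epididymal fat and inguinal fat, with a point for the estimate and a line for its 95% interval by limma. In liver the intervals of Cyp7a1, Cyp8b1 and Nr0b2 exclude 0, as do those of Cyp7b1 in both fat depots and of Cyp27a1 in inguinal fat. Cyp7b1 lies below 0 in liver (-0.36), where its interval includes 0, and above it in epididymal (0.40) and inguinal fat (0.60). The intervals are not adjusted for the number of genes, and none of these changes passed the test over all genes.

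The difference between the liver change and the mean change of both fat depots was tested in the same model. No gene of the 10 passed (limma, adjusted p from 0.268 to 0.988), against 0.236% of all genes. At an unadjusted p under 0.05 there were 3 of the 10, all enzymes and all with the lower change in liver, against 7.94% of all genes. Cyp8b1 stood at -1.19 (SE 0.29; limma unadjusted p = 0.00228; adjusted p = 0.268), Cyp7b1 at -0.86 (SE 0.22; unadjusted p = 0.00315; adjusted p = 0.297) and Cyp7a1 at -0.84 (SE 0.25; unadjusted p = 0.00888; adjusted p = 0.414). Fat levels of Cyp7a1 were under the filter level throughout, so for this gene the difference rests on the liver. Cyp8b1 was above that level in 3 and Cyp7b1 in 4 of the 8 fat arrays, so their fat changes may be background too. The other genes lay between -0.13 for Nr5a2 and 0.26 for Nr1h4, with Cyp27a1 at 0.24, Nr0b2 at 0.19, Baat at 0.04, and Slc10a1 and Slc27a5 both at -0.05.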

How the data were processed

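RNA from 12 tissue samples was hybridised to an Affymetrix mouse gene array after labelling with the GeneChip WT PLUS kit, per the labels' protocols. Deposited log2 levels were used as given, with array medians of 5.19 to 5.28. The submitters' processing notes name limma, but how the authors normalized and summarized the probes is not given in the sources used here. Probes were named from the platform annotation: 23521 of 41345 carry 1 symbol, 1814 several and 16010 none listed, and the brightest probe stood for its gene. Testing required a mean above 5.71 over the 4 arrays of any tissue. The model, tested on simulated data, took all 12 arrays and gave every group its own mean (limma 3.58.1, R 4.3.3; 6 residual and 3.35 prior degrees of freedom). Each test was two-sided, with Benjamini-Hochberg adjustment across 12710 genes and calls under 0.05. Levels are log2, changes are Mgl2-DTR minus wild-type, and promoters are from RefSeq, searched for motifs after the sequences had been seen. The genes and lists were chosen with earlier results of these data known. All 10 genes are named in each comparison. Of each pathway list the text takes up to 4 called genes per direction, or the 2 with the smallest p in liver where none was called. The cell type and state lists are given mainly as means and counts, with single genes named outside that rule. Alternatives covered the filter, the probe, normalization, variance moderation, array weights, replicate blocks, the threshold and leaving out arrays; leaving out both muscle-bearing arrays and a crossed block were added after seeing the data.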

Additional observations from a re-analysis of the deposited data

Results flagged for a closer look

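For Cyp7b1 the arrays of both genotypes lay apart in opposite directions in liver and in fat. The liver change minus the epididymal change was -0.76 (SE 0.25; limma unadjusted p = 0.0139; adjusted p = 0.623), and the liver change minus the inguinal change was -0.96 (SE 0.25; limma unadjusted p = 0.00388; adjusted p = 0.398). For Slc10a1 the arrays lay apart in opposite directions in the fat depots, where its level was under the filter level. The epididymal change minus the inguinal change was -0.52 (SE 0.21; limma unadjusted p = 0.0361; adjusted p = 0.995). None of these differences passed over all genes.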

How the results depend on the processing

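No gene of the 10 was called between genotypes in liver, epididymal or inguinal fat under any alternative run. None was called in the difference between the liver and the fat change either. All 10 were called higher in liver than in fat under each alternative, for both genotypes. For genes that passed the filter through liver alone, these steady calls add no support. Leaving out each array in turn gave 0 calls between genotypes and 10 between liver and fat. Between depots in Mgl2-DTR mice the count was 1, for Cyp27a1, in place of 0 after cyclic loess within each tissue (adjusted p = 0.0459) and at a threshold of 0.10. In liver Cyp7a1, Cyp8b1, Cyp7b1, Cyp27a1 and Nr0b2 kept their direction in all 24 alternatives. Baat, Slc27a5, Slc10a1, Nr1h4 and Nr5a2 turned in 1 to 3 of them. Most of the 24 cannot alter a liver change, such as leaving out a fat array or changing the filter, the probe or the threshold. For the genes that kept their direction, the range of the change over all settings was that from leaving out arrays. Over the 80 changes of single genes, 55 kept their sign throughout. Same-numbered arrays of different groups showed little shared deviation (r from -0.12 to 0.12 across genes). The highest value, 0.12, was that of liver and inguinal fat in Mgl2-DTR mice. With 2 arrays a group, these values cannot settle whether same-numbered samples share a mouse. With the replicate block, fixed or random, the counts were 0 between genotypes and 10 between liver and fat, and no call changed. A crossed block in inguinal fat, added after seeing that same-numbered arrays there had r = -0.12, called 0 of the 10 genes and 24 of all genes, against 25. Replicates differed more in epididymal fat (SD of their difference over genes 0.51 and 0.55) than in the other groups (0.30 to 0.35), while the model uses a single spread per gene for all of them. Counts over all genes moved more than those of the 10: 1 to 16 in liver against 9, 0 to 763 in epididymal fat against 4 (763 without wild-type replicate 2) and 0 to 55 in inguinal fat against 25. They were 0 to 244 against 30 for the liver change minus the fat change, 34 to 1445 against 190 between depots in wild-type and 53 to 539 against 249 in Mgl2-DTR mice.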

Other observations

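The genes most like each of the 10 over the 12 arrays were named as a description, since tissue sets nearly all of the likeness and 592 to 842 genes had Pearson's r above 0.95 with each of the 10. For Cyp7a1 they were Etnppl (r = 0.999), Apoc3 (r = 0.998) and Mup21 (r = 0.998). For Cyp8b1 the most alike gene was Cyp7a1 itself (r = 0.997; Spearman's rho = 0.895), followed by Mup21 and Etnppl (r = 0.996 for both). For Nr0b2 they were Mbl2 (r = 0.997), Rdh16f2 (r = 0.997) and Ces2a (r = 0.996), and for Nr5a2 they were Apoa5, Abcc2 and Acsm1 (r = 0.999, 0.999 and 0.998). For Cyp27a1, the gene with a clear level in fat, they were Hacd3 (r = 0.991), Chn2 (r = 0.990) and Id2 (r = 0.989).

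The promoter windows of the genes held 1 to 7 CG pairs. The window of Cyp27a1 held 7, the highest among the 8 windows of the 10 genes, against a median of 6 over all RefSeq windows, and those of Cyp8b1 and Nr0b2 held 4 and 3.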
